A study of Mus musculus with 15 samples.

Results

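The sites described here are 4409 stretches of open chromatin that were called in IRF8KO microglia of postnatal days 9 and 14, here P9 and P14, and in no wild-type (WT) library of those ages. They were chosen from measured peak calls. A site is a unique peak interval of the first IRF8KO P9 library, on chromosomes 1 to 19 or X, that overlapped by 1 bp or more an interval in each of the other 4 IRF8KO libraries and no interval in the 4 WT libraries of P9 and P14. These gained sites were 3.45% of the 127825 intervals in that library, a share that the rule itself sets. Gained is used below as a name for this pattern of calls: a site with no call in a WT library may still hold signal there.

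Open chromatin was measured by ATAC-seq, in which a transposase inserts sequencing adapters into accessible DNA, in microglia isolated from mouse brain without enzymes and sorted by flow cytometry. All mice were labelled C57BL/6. The young groups, all untreated, were WT at P9 (2 libraries), WT at P14 (2), IRF8KO at P9 (3) and IRF8KO at P14 (2). At 10 months there were WT mice (2 libraries) and 5xFAD mice, an amyloid plaque model, whose microglia were sorted as methoxy-X04 negative (2) or positive (2). The dye methoxy-X04 stains amyloid, and it was also given to the WT mice of 10 months. The labels give neither the part of Irf8 that was deleted nor whether replicate libraries are from different animals, and the 10 month groups include no IRF8KO.

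IRF8, a myeloid transcription factor, binds DNA together with partners such as PU.1, and it helps to set up the enhancers of microglia. Microglia, the parenchymal macrophages of the brain, are told apart from border-associated macrophages of the meninges and perivascular spaces by genes such as P2ry12 and Sall1 on the one side and Mrc1, Cd163 and F13a1 on the other. Open sites away from gene starts are often enhancers, and C/EBP, AP-1 and RUNX are families of factors that bind such sites in macrophages.

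Most gained sites lay far from gene starts, and the few that fell on a promoter are shown first because they name their gene without a distance rule. RefSeq promoter windows of GRCm38.p6, from 250 bases before to 50 after a start, were overlapped by 61 gained sites, in 70 windows of 62 genes. The 7 shown here were picked after their values were seen, because they belong to innate immune or membrane protein genes. Each run is the part of the window before the start that the site covered, in mm10 coordinates. Capitals mark matches, on either strand, to the C/EBP letters TTGCNNAA, the AP-1 letters TGANTCA or the IRF letters GAAANNGAA.
Vnn3 (chr10:23851246-23851461, plus strand): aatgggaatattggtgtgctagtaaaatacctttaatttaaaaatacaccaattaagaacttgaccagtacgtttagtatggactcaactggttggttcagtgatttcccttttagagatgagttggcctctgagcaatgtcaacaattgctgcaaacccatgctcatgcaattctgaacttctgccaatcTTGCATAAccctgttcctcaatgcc
Tlr8 (chrX:167264330-167264434, minus strand): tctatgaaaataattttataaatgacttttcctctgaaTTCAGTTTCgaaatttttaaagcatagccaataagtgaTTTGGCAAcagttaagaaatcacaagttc
Anxa1 (chr19:20390672-20390921, minus strand): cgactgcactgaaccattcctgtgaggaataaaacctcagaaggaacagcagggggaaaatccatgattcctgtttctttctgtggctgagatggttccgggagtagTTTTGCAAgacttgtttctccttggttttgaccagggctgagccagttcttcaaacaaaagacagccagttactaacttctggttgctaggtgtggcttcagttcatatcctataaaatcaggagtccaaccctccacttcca
Clec4e (chr6:123289872-123290100, minus strand): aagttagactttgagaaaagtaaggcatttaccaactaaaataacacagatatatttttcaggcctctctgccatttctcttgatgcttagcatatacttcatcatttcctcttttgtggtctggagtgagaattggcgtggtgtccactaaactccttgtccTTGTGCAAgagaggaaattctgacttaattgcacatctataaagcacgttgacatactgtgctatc
Il1r1 (chr1:40224830-40225079, plus strand): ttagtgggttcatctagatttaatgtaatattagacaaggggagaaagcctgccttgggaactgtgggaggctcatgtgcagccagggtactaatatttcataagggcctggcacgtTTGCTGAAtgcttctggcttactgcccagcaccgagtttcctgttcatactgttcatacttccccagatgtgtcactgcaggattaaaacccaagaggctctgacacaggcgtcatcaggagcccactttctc
Aqp9 (chr9:71162634-71162857, minus strand): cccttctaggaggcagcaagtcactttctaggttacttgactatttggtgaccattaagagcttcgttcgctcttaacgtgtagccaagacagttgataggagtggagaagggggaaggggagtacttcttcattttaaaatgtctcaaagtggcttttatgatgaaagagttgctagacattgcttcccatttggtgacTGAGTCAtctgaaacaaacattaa
Sirpb1b (chr3:15575066-15575294, minus strand): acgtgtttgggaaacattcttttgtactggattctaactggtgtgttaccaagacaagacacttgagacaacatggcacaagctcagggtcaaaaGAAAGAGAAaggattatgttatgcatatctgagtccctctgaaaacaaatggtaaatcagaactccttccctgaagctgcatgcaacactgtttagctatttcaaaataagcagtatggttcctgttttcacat

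The C/EBP letters occurred in the runs of Vnn3, Tlr8, Anxa1, Clec4e and Il1r1, the AP-1 letters in Aqp9 and the IRF letters in Sirpb1b and Tlr8. All 7 shown runs held a match, whereas those of Klrb1c, Sirpb1c and Fpr2, also immune or membrane protein genes, held none of these letters. The 7 runs do not stand for the 62 genes. Counted by gene over whole windows, TTGCNNAA was found at 14 of the 62 genes with a gained promoter site (22.6%), against 12.3% of all 26794 genes of the table, 8.59% of genes whose promoter held a site shared by all 9 young libraries and 12.1% of genes with a lost promoter site. The AP-1 letters were found at 7 of the 62 genes (11.3%) and at 9.03% of all genes. The RUNX letters TGTGGT were found at 22.6% against 18.8%, and the SMAD letters CAGACA at 37.1% against 23.3%. Genes with a lost promoter site gave 22.4% for the RUNX, 31.0% for the SMAD and 1.72% for the AP-1 letters. The E-box letters CACGTG occurred at none of the 62 genes and at 8.16% of all genes, and the PU.1 letters GAGGAAGT at 1 gene (1.61%) against 3.71%. Among the other letters, the IRF letters were at 12.9% against 9.74%, and the composite PU.1-IRF letters GGAANNGAA, which can overlap them, at 9.68% against 9.30%. The PU.1-IRF letters were found at 19% of genes with a lost promoter site. These shares were not tested, promoters differ in base composition, and a match is only a string of letters.

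Vnn3 encodes a vanin, an enzyme of the pantetheinase family. The fold enrichment of its promoter site over background, the authors' value at the summit, was 21.4, 18.9 and 20.4 at P9 and 16 and 10.9 at P14. At the promoter of Tlr8, an endosomal receptor for single-stranded RNA, it was 10.6, 10.1 and 9.21 at P9 and 7.21 and 9.73 at P14. Anxa1 encodes annexin A1, a phospholipid-binding protein that limits inflammation, and its site had 11.1, 8.0 and 9.62 at P9 and 8.9 and 9.49 at P14. For Clec4e, which encodes the lectin receptor Mincle, the values were 11, 10.4 and 16.2 at P9 and 6.02 and 4.03 at P14. Both P14 folds of Clec4e lay below all 3 of P9, with ranks of 60750 and 88292 against 37669 to 52360. The P14 folds of Anxa1 lay within the range of P9, but its ranks were better at P14 (37777 and 33562 against 41212 to 49698). Il1r1, the receptor for interleukin 1, had 9.82, 7.45 and 11.1 at P9 and 4.02 and 6.72 at P14, and Aqp9, a channel for water and glycerol, had 9.5, 8.19 and 8.02 at P9 and 6.55 and 6.72 at P14. None of these sites except those of Il1r1 and Sirpb1b, each in 1 library, had a peak at 10 months. Of all gained sites 70.8% had none.

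As a group, the gained sites were weaker peaks than the shared ones, which are intervals of the same library found in all 8 other P9 and P14 libraries. Their median fold enrichment was 6.39, 6.19 and 7.13 in the 3 P9 libraries and 4.82 and 4.8 in the 2 P14 libraries of IRF8KO, against 11.4, 10.9, 11.9, 8.43 and 8.06 for the 58653 shared sites. Peaks were ranked within each library by −log10 p, and 233 gained sites (5.28%) were among the 30000 top peaks in all 5 IRF8KO libraries, while 3563 (80.8%) were in none of them. Ranks of the sites in 2 libraries had a Spearman rho of 0.63 to 0.85 over the 4409 sites, highest within P9. These values come from the calls that chose the sites and are a description only. A stricter threshold of −log10 p 5 in the IRF8KO lists left 2823 sites (64.0%).

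The gained sites were 150 to 1767 bp wide, with a median of 313 bp against 246 bp for lost and 456 bp for shared sites. Lost sites are the mirror image, 4709 of the 137560 intervals of the first WT P9 library, found in every WT and no IRF8KO library of these ages. The gap from a gained site to the nearest WT interval had a median of 2604 bp, and 1088 sites (24.7%) had one within 1000 bp. Just inside the rule, sites within Zfyve21 and Ptprn2 lay 8 bp from a WT interval and one near Zbtb18 lay 11 bp away. Just outside, intervals within Rnf150, near Ostm1 and near Suclg2 were excluded by an overlap of 1, 2 and 3 bp with an interval of 1 WT library. A further 2145 intervals were in all 5 IRF8KO lists and 1 WT list.

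Gained sites were mostly distal. By the distance to protein-coding genes of RefSeq, 4.20% lay within 1 kb of a gene end, near the 3.82% of lost sites and well below the 21.8% of shared sites and 14.4% of all intervals. The shares inside a gene were alike, at 55.1% of gained, 58.7% of lost and 56.6% of shared sites. More than 50 kb from any gene lay 17.0% of gained, 16.5% of lost and 8.37% of shared sites. Counting all genes of the table, non-coding ones included, 8.03% of gained sites were within 1 kb of a gene end and 63.3% inside a gene.

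**Figure D1:**
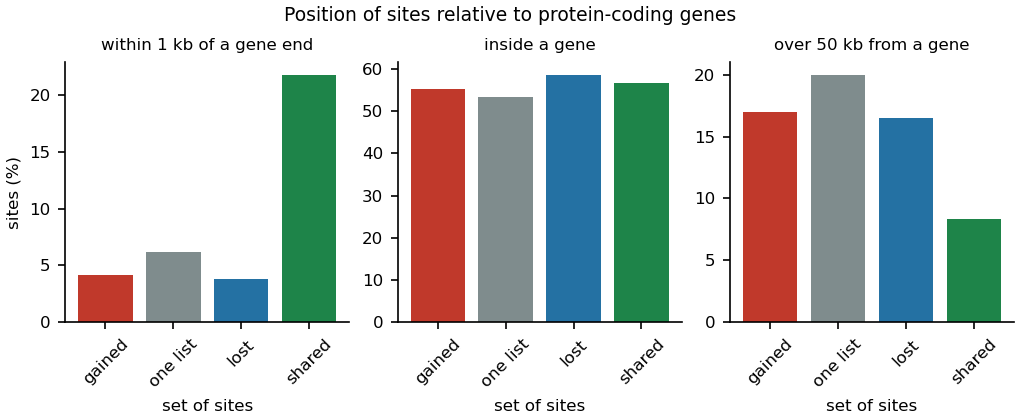
Share of sites (y axis, %) within 1 kb of an end of a protein-coding gene, inside a gene and more than 50 kb from any gene, for gained sites, intervals found in no other young library (one list), lost sites and shared sites. Gained and lost sites reached 4.20% and 3.82% near gene ends, against 21.8% for shared sites.

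Of the gained sites, 3988 had a protein-coding gene within 100 kb, and these genes numbered 2747, which is 12.7% of the 21631 protein-coding genes of the table. A single gained site was found at 1996 of them and 5 or more at 53. Lost sites were found at 2703 genes, and 710 genes had both, which is 25.8% of the genes with a gained and 26.3% of those with a lost site. The genes with the most gained sites were Trps1 with 12, Itpr1 and Myo10 with 10 each, Rnf150 and Runx2 with 9 each, Dscam and Pde4d with 8 each, and Syne1, Immp2l and Arhgap10 with 7 each. Their median length was 328 kb, against 17.3 kb over all protein-coding genes. Trps1, a GATA-type repressor, had 12 gained, 0 lost and 10 shared sites, and Itpr1, a calcium channel of the endoplasmic reticulum, had 10, 3 and 17. The densest 100 kb windows lay beside Myo10, an unconventional myosin, with 7 gained sites among 17 intervals, over Clec12a, Clec12b and Clec2m with 7 among 14, and in Runx2 with 6 among 25. A window at Bhlhe40 also held 6, among 20 intervals.

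Border-associated macrophage genes carried many gained sites. Of the 17 genes of that list, 9 had a gained site, and the list held 21 gained, 5 lost and 60 shared sites. That is 350 gained per 1000 shared sites, where all genes together gave 71.1 gained and 75.2 lost per 1000 shared. The 9 genes were F13a1 with 5 sites, Dab2 with 4, Mrc1 and Cd163 with 3 each, Ms4a7 with 2, and Clec4n, Cp, Siglec1 and Folr2 with 1 each. No site of Lyve1, Pf4, Cbr2, Stab1, Clec10a, Apoe, Cd209f or Cd209a was gained, and Cd209a had 1 lost site. With −log10 p of 5 or more required in all IRF8KO libraries, 10 of the 21 sites were left, beside 64.0% of all gained sites.

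The best-ranked site of this list, chr6:123252738-123253201, lay 5.98 kb from Clec4n, which encodes the fungal receptor Dectin-2, and had folds of 22.2, 18.9 and 20.9 at P9 and 20.2 and 20.8 at P14. The 5 values lay close together at both ages. At F13a1, the A chain of coagulation factor XIII, the strongest site (chr13:37104903-37105410, 54.9 kb outside the gene) had 29.99, 28.1 and 30.6 at P9 and 19.4 and 19.4 at P14. Both P14 folds were below all 3 at P9, but folds were lower at P14 at shared sites too, and the ranks of the F13a1 site overlapped (6582 to 9815 at P9, 9613 and 11670 at P14). Cd163, the scavenger receptor for haemoglobin and haptoglobin, had 3 sites inside the gene, and the strongest (chr6:124320391-124320800) had 12.8, 11.4 and 12.6 at P9 and 11 and 13.7 at P14. Here the ages overlapped. Cp, the copper-carrying ferroxidase ceruloplasmin, had a site at chr3:19948528-19948964 with 16.3, 16.6 and 20.4 at P9 and 21 and 16.1 at P14. The sites in Mrc1, the mannose receptor, were weak: the one at chr2:14261944-14262451, which lay 863 bp from the hairpin of Mir511 inside the gene, had 4.63, 6.69 and 8.15 at P9 and 5.78 and 5.54 at P14. At 10 months 4 of the 21 sites had a peak in any library, beside 29.2% of all gained sites, and none in both libraries of a group.

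Other lists of macrophage states differed in their balance. The coagulation and serpin list held 15 gained, 0 lost and 40 shared sites. Serpinb2, which encodes plasminogen activator inhibitor 2, had 6 of the 15, and F13a1, counted above, had 5. Without Serpinb2 there were 9 gained beside 39 shared sites. The monocyte list held 15 gained and 3 lost beside 53 shared sites, with 5 gained at Itga4, the α4 integrin of leukocyte adhesion, and 3 at Cd44, a hyaluronan receptor. In Cd44 the best site (chr2:102877531-102877912) had 13.8, 15.1 and 11.2 at P9 and 8.6 and 14.6 at P14, and that near Itga4 (chr2:79193751-79194227, 61.4 kb outside) had 16.2, 17.6 and 17.2 at P9 and 22.6 and 14.8 at P14. Values of the 2 ages overlapped at both genes. F10, Hp and Clec4e each had a gained and no shared site. With genes within 20 kb the monocyte count was 9.

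Markers of cells other than microglia were counted in the same libraries. A peak lay on the promoter of 10 to 11 of the 15 listed monocyte genes with a window in IRF8KO at P9, 8 in IRF8KO at P14, 6 to 8 in WT at P9 and 9 in WT at P14. The Clec4e promoter had a peak in all 5 IRF8KO libraries and no WT library, and that of Mgst1 in all 5 and in 1 of the 4 WT libraries. The promoters of Ccr2 and Chil3, which define monocytes, had no peak in any of these 9 libraries, although 3 shared sites were assigned to Ccr2. Of 13 lymphocyte promoters 2 to 4 had a peak in IRF8KO and 1 in WT, and that of Klrb1c had one in all 5 IRF8KO and no WT library. Those of Cd3e, Cd3d, Cd3g, Cd8a, Lck and Nkg7 had none in any. Neutrophil promoters had a peak at 4 to 7 of 16 in IRF8KO and 2 to 8 in WT, with Elane, Ngp and Lcn2 at none. Of 13 border-associated macrophage promoters 8 to 9 had a peak in IRF8KO at P9, 8 in IRF8KO at P14 and 7 in each young WT library. The part of other cells in the gained sites was not tested. Homeostatic microglia promoters had a peak at 11 to 12 of 13 genes in all 9 libraries.

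Lipid genes held 20 gained, 10 lost and 174 shared sites, with gained sites at 12 of 26 genes. Of the 20 sites, 12 had −log10 p of 5 or more in all IRF8KO libraries, beside 64.0% of all gained sites. Cd36, the scavenger receptor for fatty acids and oxidised lipoprotein, had 5 gained and 0 lost sites, and its strongest (chr5:17879844-17880424) had 13, 17.6 and 18.7 at P9 and 15.2 and 14.9 at P14. Plin2, which coats lipid droplets, had 2 gained sites, the stronger (chr4:86648403-86648867) with 18.4, 19.1 and 23.4 at P9 and 14.1 and 13.4 at P14. A site within Pparg, a nuclear receptor of lipid metabolism, had 18.3, 10.8 and 11.8 at P9 and 6.02 and 6.27 at P14, and its ranks were 30154 to 52273 at P9 and 55685 and 60744 at P14. None of the 5 Cd36 sites and neither Plin2 site had a peak in any library of 10 months, which held for 70.8% of all gained sites.

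The disease-associated microglia list held 18 gained and 10 lost beside 131 shared sites, and 11 of the 18 came from Ank, a pyrophosphate transporter with 6, and Cadm1, an adhesion molecule with 5. Clec7a, which encodes Dectin-1, had 1 (chr6:129471408-129471778, 6.8, 7.88 and 6.12 at P9 and 5.98 and 6.08 at P14). At −log10 p of 5 or more in all IRF8KO libraries 7 of the 18 were left, beside 64.0% of all gained sites. No gained site was assigned to Apoe, Lpl, Spp1, Cst7 or Trem2. Of the 18 sites, 11 were present in some library of 10 months, beside 29.2% of all gained sites, and 8 of the 11 were at Ank (5) and Cadm1 (3). Among them was the best site near Ank (chr15:27452386-27452925), which had folds of 16.1, 18.4 and 17.9 at P9 and 12.9 and 9.17 at P14. It had 3.89 and 4.17 in the X04 negative libraries and no peak in WT or X04 positive ones.

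At homeostatic microglia and dendritic cell genes lost sites outnumbered gained ones. The homeostatic list held 5 gained sites at Bin1 (2), Cx3cr1, Sall3 and Mef2c, against 33 lost and 151 shared. Sall1, a transcription factor that defines microglia, held 17 of the 33 lost sites and no shared one, and without it the list had 16 lost sites, or 106 per 1000 shared instead of 219. For dendritic cell genes 2 gained sites, both at Tcf4, stood against 15 lost and 114 shared. The gained sites per 1000 shared were 33.1 and 17.5. Interferon response genes held 2 gained sites, at Oas3 and Ddx58, and 0 lost, and antigen presentation genes held 3 of each, the gained ones at Nlrc5, Cd86 and B2m. Astrocyte genes had no gained and 7 lost sites.

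Chemokine and cytokine genes had gained sites at 8 of 27 genes, 11 sites in all against 6 lost and 102 shared. That is 108 gained per 1000 shared, below the 167, 147 and 120 of oligodendrocyte, lymphocyte and neuron genes. Of the 11 sites, 4 lay in the Cxcl1, Cxcl2 and Cxcl3 cluster, whose products attract neutrophils. The strongest (chr5:90861866-90862352, 29.2 kb from Cxcl1) had 21.8, 22.7 and 19.9 at P9 and 15.8 and 18.3 at P14. Near Tnfaip3, which encodes the NF-κB inhibitor A20, a site (chr10:18941491-18941862) had 12, 9.91 and 12.1 at P9 and 8.55 and 8.59 at P14, and at Ccl24, an eotaxin, one (chr5:135582286-135582766) had 16.4, 18.8 and 17.6 at P9 and 6.83 and 8.51 at P14. The P14 folds were below all P9 folds at these 3 sites, as median folds were at shared sites. By rank within a library the ages overlapped at Cxcl1 (7006 to 10305 at P9, 7366 and 11969 at P14) and Tnfaip3 (16252 to 25395, 22777 and 26875), but not at Ccl24 (23947 to 33506, 40424 and 53771). Of the 11 sites, 11 passed −log10 p 5 in all 5 IRF8KO libraries, beside 64.0% of all gained sites. When the gene had to lie within 20 kb, 5 remained.

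Among myeloid transcription factors 19 of 38 genes had gained sites, with 43 gained, 34 lost and 437 shared sites. That is 98.4 gained per 1000 shared, against 71.1 over all genes. Without Runx2 there were 34 gained sites, or 80.6 per 1000 shared. The 43 became 27 with genes within 20 kb. At −log10 p of 5 or more in all IRF8KO libraries they became 28, beside 64.0% of all gained sites. Runx2, a Runt-domain factor best known from bone, had 9 gained sites, 1 lost and 15 shared. Its best site (chr17:44601694-44602147) had 17.6, 15.4 and 17.9 at P9 and 11.1 and 11.4 at P14. Bhlhe40, a repressor active in macrophages, had 6 gained sites, all outside the gene, 0 lost and 9 shared. An intergenic site beside Mef2a (chr7:67431019-67431384) had 16.2, 15.1 and 15.7 at P9 and 12.9 and 14.3 at P14. Within Irf2, which encodes a relative of IRF8, a site (chr8:46811175-46811657) had 20.1, 25.2 and 25.4 at P9 and 12 and 14.8 at P14. That Irf2 site was also found in both X04 positive libraries (4.42 and 4.91) and in 1 library each of WT and X04 negative 5xFAD. In the TGF-β list, which held 11 gained, 17 lost and 155 shared sites, 6 of the gained were at Ltbp1, a binding protein of latent TGF-β, and 1 was at Tgfbr2, which had 4 lost sites.

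**Figure D2:**
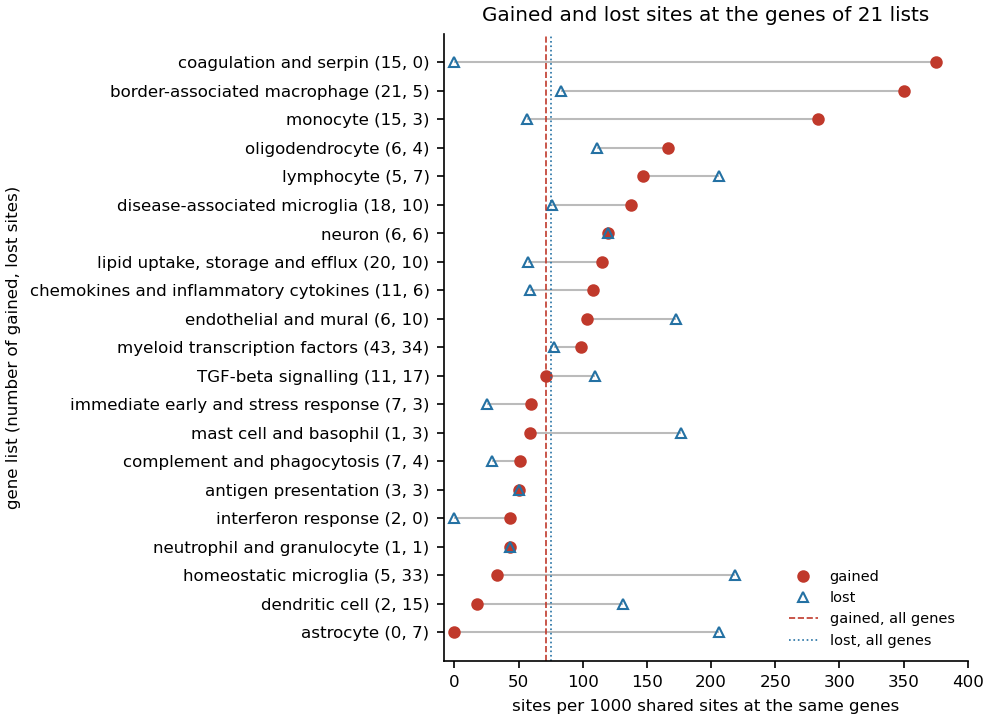
Gained (filled circles) and lost (open triangles) sites per 1000 shared sites (x axis) at the genes of each of 21 lists (y axis, with the number of gained and lost sites in brackets). Lines mark the values over all genes, 71.1 gained and 75.2 lost; coagulation and serpin, border-associated macrophage and monocyte genes stood highest for gained sites. The homeostatic microglia value for lost sites, 219, became 106 without Sall1. The 206 of astrocyte genes likewise became 105 without Slc1a3, and the 206 of lymphocyte genes 43.5 without Ets1.

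Of the 376 listed genes in the table, 101 had a gained site, with 191 gained and 171 lost sites in all. The gained count was 144 for genes within 20 kb. It was 125 for sites with −log10 p of 5 or more in all IRF8KO libraries, which 64.0% of all gained sites had. The remaining lists were immediate early genes (7 gained, 3 lost), complement and phagocytosis (7, 4), lymphocyte (5, 7), neuron (6, 6), oligodendrocyte (6, 4), endothelial and mural (6, 10), neutrophil (1, 1) and mast cell (1, 3). All 6 neuron sites were at Dlgap1, a scaffold protein of synapses.

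Gene families gave a denser pattern. The SIRP beta genes of chromosome 3, which encode activating receptors of myeloid cells, carried 16 gained sites at 5 genes, 0 lost and 2 shared. The 16 sites ran from chr3:15270555 to chr3:16086867. The strongest, chr3:15284764-15285353, lay 9.94 kb from Gm9733 and had 24.7, 26.5 and 25.1 at P9 and 20.8 and 20.6 at P14. One beside Sirpb1a (chr3:15427785-15428282) had 24.2, 27.7 and 24.8 at P9 and 26.4 and 26.6 at P14. At the start of Sirpb1b the values were 16.5, 17.2 and 13.7 at P9 and 13.5 and 15.1 at P14, at Sirpb1c 13.6, 13.9 and 13.9 at P9 and 10.8 and 11.1 at P14 and at Gm5150 9.99, 11 and 13.7 at P9 and 7.0 and 5.85 at P14. All 16 sites were called in all 5 IRF8KO libraries by the rule. At 10 months 5 of them had a peak, in 1 or 2 of the 6 libraries, beside 29.2% of all gained sites. These genes are near-identical copies, so reads could be placed on the wrong one, and the order of strength among them is uncertain. Serpins had 21 gained, 5 lost and 53 shared sites, C-type lectin and Klr genes 20, 8 and 84, and olfactory receptor genes 16, 8 and 104; the same caution holds for their closest copies.

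Irf8 itself had a peak at its start in all 15 libraries, with ranks of 12085 to 17738 in the 5 IRF8KO and 11080 to 15373 in the 4 young WT libraries. The deleted part is not given, so this locus does not check the labels. No gained site and 2 lost sites were assigned to Irf8 (chr8:120736358-120756694), and the nearest gained site lay 298.8 kb away.

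**Figure D3:**
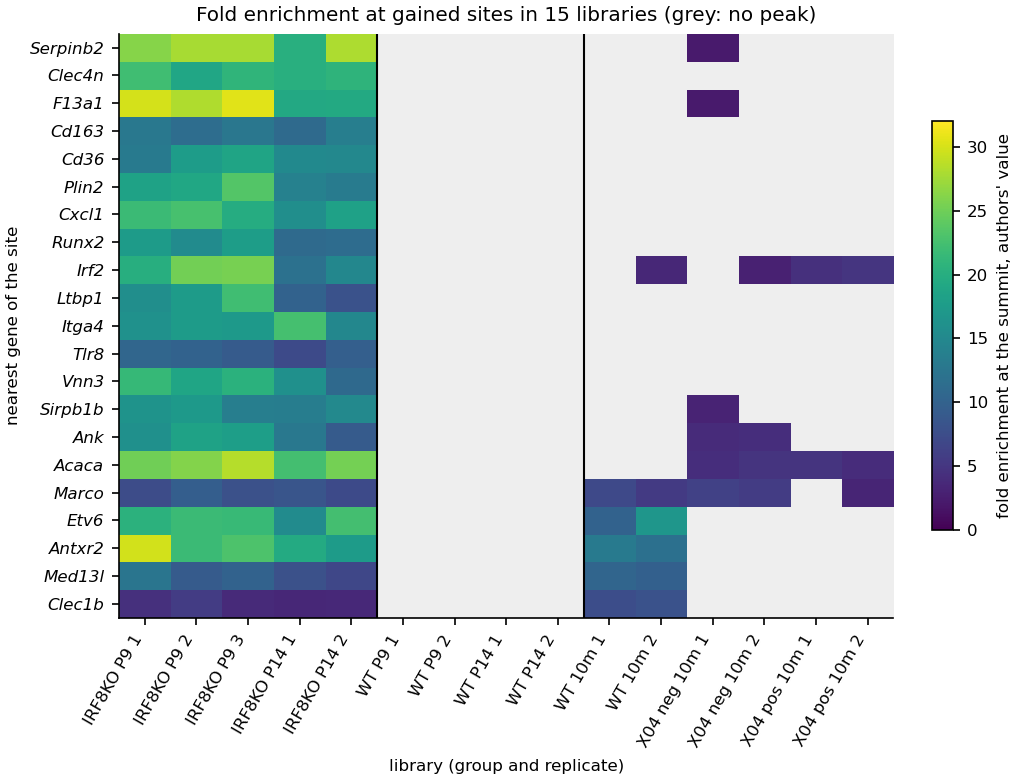
Fold enrichment at the summit (colour, the authors' value) of 21 gained sites, named by their nearest gene (y axis), in the 15 libraries (x axis, group and replicate); grey marks no peak. The rule sets the filled IRF8KO and empty WT columns of P9 and P14; at 10 months most cells are grey, while Etv6, Antxr2, Med13l and Clec1b were present in both WT libraries and in no 5xFAD library.

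At 10 months few gained sites had a peak. In WT 300 and 318 of the 4409 sites did, a mean of 7.01 ± 0.29% (SD, n = 2 libraries). In X04 negative 5xFAD microglia 444 and 383 did (9.38 ± 0.98%), and in X04 positive ones 345 and 381 (8.23 ± 0.58%). Intervals found in the first IRF8KO P9 library and in none of the 8 other young libraries, 8967 in number, were present at 6.27 ± 1.97%, 8.33 ± 1.37% and 7.64 ± 2.29% in the same order. Compared within each library, gained sites and these intervals differed in both directions. Gained sites were higher in WT replicate 2 (7.21% against 4.87%), X04 negative replicate 1 (10.1% against 7.36%) and X04 positive replicate 2 (8.64% against 6.02%). They were lower in WT replicate 1 (6.8% against 7.66%), X04 negative replicate 2 (8.69% against 9.3%) and X04 positive replicate 1 (7.82% against 9.26%). Gained sites were also wider (median 313 bp against 169 bp), and the effect of width on overlap was not tested. Lost sites were present at 48.9 ± 5.1%, 60.5 ± 2.0% and 18.1 ± 0.66%, and shared sites at 84.2 ± 2.6%, 86.8 ± 2.4% and 54.3 ± 2.9%. The 7 groups differed in strength, read here as the −log10 p reached at rank 30000. At P9 strength was 73.4 to 80.6 in IRF8KO and 39.1 to 54.3 in WT libraries. At P14 the order was reversed, with 22.8 to 26.6 in IRF8KO and 61.8 to 68.2 in WT libraries. At 10 months strength was 18.6 to 24.3 in WT and X04 negative and 6.04 to 6.29 in X04 positive libraries. Lists held 126060 to 194391 peaks on these chromosomes. Age, dye and library strength cannot be told apart between the young and the old mice. For the IRF8KO libraries that chose the sites, Irf8 genotype is a further difference from all libraries of 10 months. Within P9 and within P14, genotype and library strength cannot be told apart either.

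**Figure D4:**
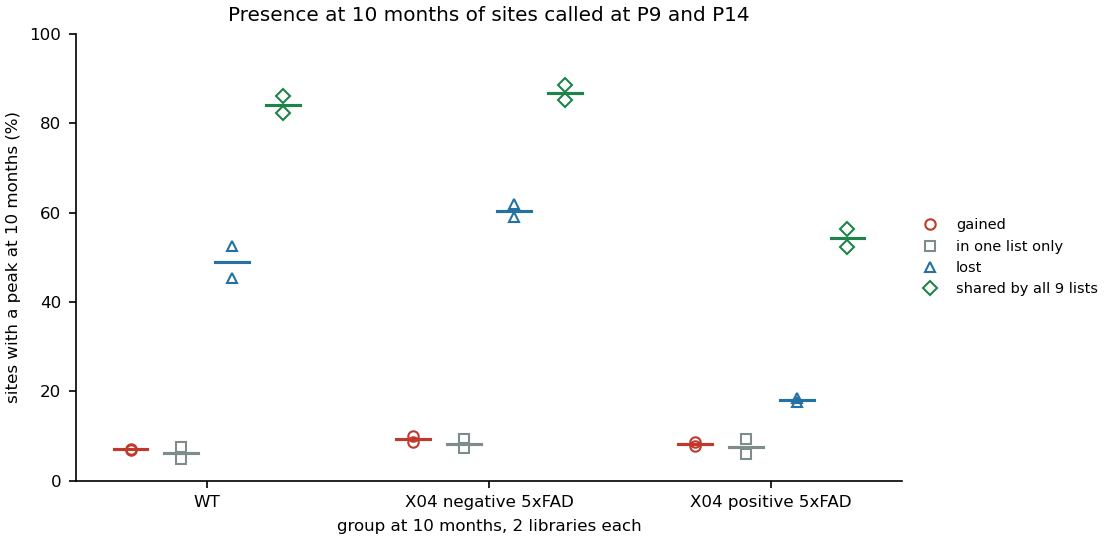
Share of sites with a peak at 10 months (y axis, %) in each library (points, with the mean of 2 as a line) of WT, X04 negative and X04 positive 5xFAD microglia, for gained sites, intervals in one young list only, lost sites and shared sites. Gained sites lay at 6.8% to 10.1%, beside 4.87% to 9.3% for the intervals of one list. They lay far below lost sites in WT and X04 negative libraries.

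The order of the 3 groups changed with the length of the lists, which ran from 126060 to 147899 peaks in WT, 163054 to 192132 in X04 negative and 187535 to 194391 in X04 positive libraries. When every list was cut to its 126060 top peaks, the length of the shortest, the means were 6.53% for WT, 6.69% for the X04 negative and 5.49% for the X04 positive group, and with 60000 top peaks they were 1.67%, 1.24% and 2.46%. No comparison of 2 against 2 libraries can give an exact two-sided permutation p below 0.333, so no test is given. Of the 4409 sites, 3122 (70.8%) were in none of the 6 libraries, against 73.5% of the intervals of a single young list and 3.49% of shared sites, and 13 were in all 6. By strength in IRF8KO, the best-ranked 1103 sites were present at 8.52 ± 0.77% for WT, 11.4 ± 1.5% for the X04 negative and 9.25 ± 0.51% for the X04 positive group, and the lowest-ranked 1102 at 6.99 ± 0.51%, 9.53 ± 0.90% and 8.53 ± 0.13%. When present, gained sites had median ranks of 81915 to 98698 in the 6 libraries, against 23565 to 31200 for shared sites.

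Few gained sites separated the groups of 10 months. Present in both X04 negative and in neither WT library were 63 sites (1.43%), beside 2.23% of all intervals, and the reverse held for 34 sites (0.771%), beside 1.07%. Present in both X04 positive and neither X04 negative library were 34 sites (0.771%), beside 0.583%, with 81 (1.84%), beside 12.8%, in the reverse direction. Against WT, X04 positive libraries had 33 (0.748%) beside 0.692%, with 74 (1.68%) beside 11% the other way. Since at most 8.69% of gained sites could be in both X04 negative and 6.8% in both WT libraries, the low shares of sites absent from X04 positive libraries restate the low presence at 10 months. The 3 pairs share their libraries. Each count rested on both libraries of the first group. Without X04 negative replicate 1 or 2 the 63 became 218 or 262 (4.94% or 5.94%, beside 5.42% or 6.49% of all intervals). Without WT replicate 1 or 2 the first 34 became 133 or 149 (3.02% or 3.38%, beside 3.71% or 3.39%).

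Sites present in X04 negative and not in WT libraries included those near Cndp1, Ptchd1 and Retreg1 and one within the gene for acetyl-CoA carboxylase, Acaca. This enzyme makes the building block of fatty acid synthesis. Its site (chr11:84197650-84198409) had 25, 26.1 and 28.5 at P9 and 22.4 and 25.3 at P14 in IRF8KO. It was also present in all 4 libraries of 5xFAD, with 4.21 and 4.81 in X04 negative and 4.82 and 4.05 in X04 positive ones, and in neither WT library. In the X04 positive set, sites within Zmiz1, a transcriptional co-regulator, Trhr2, Runx2 and Xpo4 ranked best beside Acaca by their mean rank in the X04 positive libraries, among sites in both of these and in no WT library. The Runx2 site (chr17:44637249-44637485) had 4.11, 5.81 and 8.83 at P9 and 4.02 and 4.93 at P14 in IRF8KO, 3.86 and 4.05 in X04 positive libraries and no peak in any other library of 10 months. The folds at 10 months were below all IRF8KO values for Acaca, and for this Runx2 site within or just below them. Median folds at shared sites, where present, were lower at 10 months too. They were 7.91 and 7.42 in X04 negative and 4.59 and 4.56 in X04 positive libraries, against 8.06 to 11.9 in IRF8KO.

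The gained sites that were strongest in WT at 10 months lay mainly on chromosomes 5 and 6. By mean rank in the WT libraries, the 5 best were within Clec1b, Etv6 and Med13l, 24 kb from Antxr2 and 1.97 kb from Naip2. Etv6 encodes an ETS repressor of blood stem cells; its site (chr6:134247235-134247716) had 20.5, 21.8 and 21.6 at P9 and 15.5 and 22.5 at P14 in IRF8KO and 10.0 and 16.8 in WT at 10 months. The site near Antxr2 (chr5:98054843-98055191), a receptor for anthrax toxin, had 29.9, 21.9 and 23.1 at P9 and 19.6 and 17.6 at P14 and then 13.2 and 11.8. In Med13l, a Mediator subunit (chr5:118645174-118645502), the values were 12.4, 9.21 and 10.1 at P9 and 7.93 and 6.85 at P14 and then 10.5 and 9.81. Clec1b encodes the platelet and myeloid lectin receptor CLEC-2, and its site (chr6:129402504-129402711) had 4.38, 5.63 and 3.85 at P9 and 3.53 and 3.65 at P14 and then 7.59 and 8.12, so that WT at 10 months lay above all IRF8KO values. None of these 4 sites had a peak in any young WT or any 5xFAD library. The Naip2 site, in a family of close copies, was present in all 6 libraries of 10 months. Marco, a scavenger receptor, also had a site 22.9 kb away that was present in 5 of the 6.

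Of the 34 sites in both WT and neither X04 negative library, 11 were on chromosome 6, between 116.7 and 134.2 Mb, and 6 on chromosome 5. Over all intervals, chromosome 6 gave 83 and chromosome 5 gave 114 of the 1362 with this pattern. Chromosome 6 held 273 and chromosome 5 held 278 of the 4409 gained sites. The 11 were near or in Klrb1c (2), Clec2e (2), Mical3 (2), Clec12a, Clec12b, Clec1b, Etv6 and Tmem72, and the lectin genes among them belong to the natural killer gene complex. In the stretch from 120 to 135 Mb of chromosome 6, chosen after these values were seen, 14 and 15 of 48 gained sites (29.2% and 31.3%) had a peak in the WT libraries of 10 months. In X04 negative libraries 2 and 5 did (4.17% and 10.4%), and in X04 positive ones 1 and 4 (2.08% and 8.33%). For the 545 shared sites of the stretch, the shares were 87.3% and 90.1% in WT and 91.4% and 89.4% in X04 negative libraries, so shared sites did not show this split. Between 95 and 125 Mb of chromosome 5 the groups lay closer together. There 13.3% and 10.7% of 75 gained sites had a peak in WT, 8% and 9.33% in X04 negative and 8% and 5.33% in X04 positive libraries. At Klrb1c, which encodes the NK1.1 antigen, a site within the gene (chr6:128786284-128786717) had 10.4, 8.49 and 11.1 at P9 and 11.1 and 10.3 at P14 in IRF8KO, 4.79 and 10.2 in WT at 10 months and no peak elsewhere. The lectin genes are close copies of each other, and neither read placement nor genetic background in these stretches was tested, although all groups were labelled with the same strain.

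**Figure D5:**
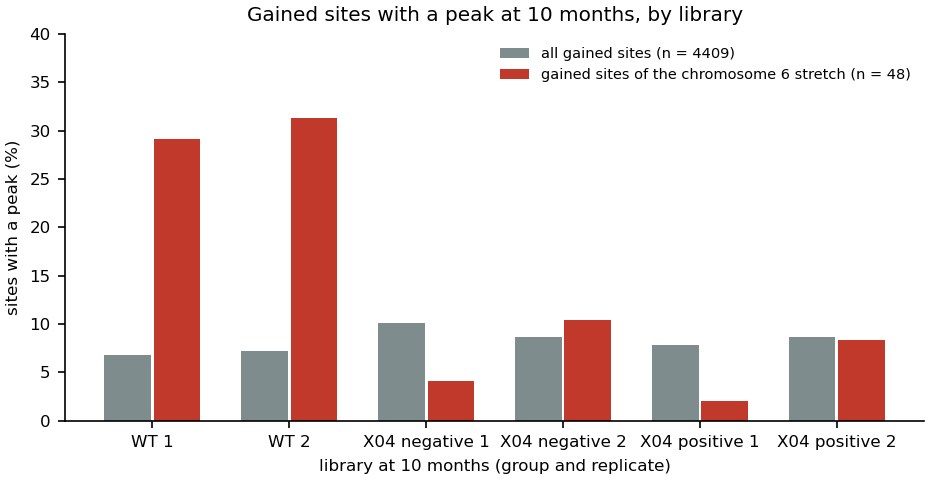
Share of gained sites with a peak (y axis, %) in each of the 6 libraries of 10 months (x axis, group and replicate), for all 4409 sites (grey) and for the 48 sites between 120 and 135 Mb of chromosome 6 (red). The 2 WT libraries reached 29.2% and 31.3% in that stretch, against 2.08% to 10.4% in the 4 5xFAD libraries.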

How the data were processed

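ATAC-seq peak lists of 15 libraries in 7 groups were used, 1 list per library. The tools were bcl2fastq, Bowtie2, deepTools and MACS2 2.2.7.1, with build mm10, in no stated order, per the submitters' processing notes. Peaks were called per library by the authors. The deposited columns were a score, a fold enrichment (a ratio), −log10 p, −log10 q and the offset of the summit from the peak's start in bp, and the score and q were not used further. No read count or depth was analysed here, and folds carry no counting interval.

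Peaks of chromosomes 1 to 19 and X were collapsed to unique intervals, and the rule for gained sites was applied with an overlap of 1 bp or more. A site took the best −log10 p, fold and rank of the peaks overlapping it. Each site took the closest protein-coding gene within 100 kb from the RefSeq table of GRCm38.p6, which mm10 names. Of 379 listed genes 376 matched. Motif letters were searched on both strands of RefSeq promoter windows; the planned search around summits needs a genome, which was not used here, and chromosome 18 was left out of promoter and start distances. The overlap rule was tested on simulated lists. No test across groups was made, because the rule used the P9 and P14 contrast and the groups of 10 months have 2 libraries each.

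The sites, the gene lists and the comparisons were chosen with earlier results of these data known. Named genes were those of the 10 best-ranked sites, the 10 genes with most sites, up to 3 genes per list, the 5 best sites of 3 patterns at 10 months by rank in that group, the 10 best sites within 1 kb of a gene end, the 3 densest windows and Irf8. Promoter genes, SIRP genes, further members of the lists and the chromosome 6 genes were picked after their values were seen, and some genes that the rule selects are given only in the counts. Leaving out of each list the gene with most gained or lost sites was added after seeing the data. Alternatives changed the overlap, the distance to WT intervals, the starting library, list lengths, thresholds and libraries. Python 3.11.15, numpy 2.4.6, pandas 2.3.3, scipy 1.17.1 and matplotlib 3.10.9 were used.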

Additional observations from a re-analysis of the deposited data

How the results depend on the processing

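No paired analysis was possible because the results come from no test. The number of gained sites, 4409, was 2823 with −log10 p of 5 or more in the IRF8KO lists, and the other alternatives gave 3321 (no WT interval within 1000 bp) to 6086 (without IRF8KO P14 replicate 1), within 1.5 times. Leaving out each of the 9 libraries gave 4556 to 6086.

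The share of gained sites with a peak at 10 months fell in every group when more overlap or a higher rank was asked for. With a summit within 200 bp the values were 6.36% for WT, 8.48% for the X04 negative and 6.89% for the X04 positive group. With 50% of the interval covered it was 4.07%, 5.41% and 3.83%, with lists cut to the shortest 6.53%, 6.69% and 5.49%, and with 60000 top peaks 1.67%, 1.24% and 2.46%. In WT it was 6.49% for sites with no young WT interval within 1000 bp and 7.63% for sites with −log10 p of 5 or more in all IRF8KO lists. Leaving out a library gave 6.8% to 7.21%, 8.69% to 10.1% and 7.82% to 8.64%.

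Counts of sites separating 2 groups at 10 months depended on both libraries. With lists cut to the shortest, X04 negative over WT gave 37 (0.839%, beside 1.60% of all intervals). X04 positive over X04 negative gave 15 (0.340%, beside 0.434%) and X04 positive over WT 13 (0.295%, beside 0.431%). Leaving out 1 library gave 78 (1.77%, beside 4.10%) to 262 (5.94%, beside 6.49%) for X04 negative over WT. For WT over X04 negative it gave 52 (1.18%, beside 3.17%) to 149 (3.38%, beside 3.39%). It gave 40 (0.907%, beside 0.976%) to 268 (6.08%, beside 3.13%) for X04 positive over X04 negative. The reverse had 101 (2.29%, beside 17.8%) to 287 (6.51%, beside 19.3%). Against WT, X04 positive had 42 (0.953%, beside 1.19%) to 272 (6.17%, beside 3.50%). The reverse had 87 (1.97%, beside 15.6%) to 202 (4.58%, beside 16.9%). The cause of each change other than the smaller number of libraries or peaks was not tested.

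With all genes of the table, 8.03% of gained sites were within 1 kb of a gene end and 63.3% inside a gene. Gained sites at listed genes fell from 191 to 125 with −log10 p of 5 or more, which 64.0% of all gained sites had. Depth is unknown here, and a weak WT peak below the authors' threshold would count as absent.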
